A study of Mus musculus with 4 samples.

Results

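Interleukin 12 (IL-12) and interleukin 18 (IL-18) are the cytokine pair to which natural killer (NK) cells answer with interferon gamma. The 6 genes described here are the IL-12 receptor chains Il12rb1 and Il12rb2, the IL-18 receptor chains Il18r1 and Il18rap, the signal transducer Stat4 and the output gene Ifng. They were chosen by role, with earlier results of these data known, as the rows of the count table whose Entrez gene numbers map to these symbols. They are 6 of 26611 genes listed. All 6 passed the filter on low counts, with 12723 genes in all. RNA was sequenced from spleen NK cells of 2 Tcf7 knock-out (KO) mice and 2 wild-type (WT) mice, all of C57BL/6 background and each library from its own animal. The cells of both groups were sorted as negative for TCRbeta and positive for NK1.1, NKp46, CD11b and KLRG1, a gate that selects mature NK cells. The labels give neither the age or sex of the mice nor the Tcf7 allele, and name no cytokine treatment. The study asks about the role of Tcf-1, the transcription factor that Tcf7 encodes, in NK cells.

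As background, IL-12 is made by dendritic cells and macrophages and binds a receptor of 2 chains, Il12rb1 and Il12rb2. The kinases Tyk2 and Jak2 bound to these chains then phosphorylate Stat4, which enters the nucleus. IL-18 binds Il18r1, which recruits the accessory chain Il18rap, and the pair signals through the adaptor Myd88 and Irak kinases to NF-kappaB. In NK cells the combination induces Ifng strongly, and resting NK cells already hold some Ifng mRNA.

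Il18r1 and Il18rap lie beside each other on the same strand of chromosome 1 (mm10, 40465552 to 40500854 and 40515362 to 40551705), with 14507 bases between them. Stat4 lies on chromosome 1 (51987148 to 52107189), Ifng on chromosome 10 (118441046 to 118445892), Il12rb2 on chromosome 6 (67291318 to 67376188) and Il12rb1 on chromosome 8 (70808449 to 70821424). Of the 6 genes, 5 had a promoter entry in the RefSeq table of build GRCm38, the same assembly as mm10, and Il12rb1 had none. The 250 bases before the start are shown for Il18rap and Ifng, the genes whose KO libraries did not overlap the WT libraries, and for Stat4 and Il12rb2, which share the signalling arm of IL-12. Capitals mark matches, on either strand, to the Tcf/Lef core CTTTGA or CTTTGT, the class of site that Tcf-1 binds, or to the Stat core TTCNNNGAA.
Il18rap (chr1:40515112-40515361, plus strand): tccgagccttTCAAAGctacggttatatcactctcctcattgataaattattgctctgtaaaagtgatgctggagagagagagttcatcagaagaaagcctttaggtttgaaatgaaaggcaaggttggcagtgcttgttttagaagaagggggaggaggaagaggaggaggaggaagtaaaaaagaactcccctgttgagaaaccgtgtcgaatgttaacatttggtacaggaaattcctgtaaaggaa
Stat4 (chr1:51986898-51987147, plus strand): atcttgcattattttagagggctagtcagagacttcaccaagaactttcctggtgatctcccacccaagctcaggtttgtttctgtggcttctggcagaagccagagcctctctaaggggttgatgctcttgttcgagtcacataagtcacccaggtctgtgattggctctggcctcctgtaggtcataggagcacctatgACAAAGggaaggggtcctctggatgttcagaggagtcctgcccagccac
Ifng (chr10:118440796-118441045, plus strand): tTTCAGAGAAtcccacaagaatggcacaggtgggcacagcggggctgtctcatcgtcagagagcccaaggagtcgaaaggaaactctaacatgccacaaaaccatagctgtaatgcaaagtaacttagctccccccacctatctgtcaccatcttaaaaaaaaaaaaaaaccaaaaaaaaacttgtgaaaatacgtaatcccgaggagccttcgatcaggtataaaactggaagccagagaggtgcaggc
Il12rb2 (chr6:67376189-67376438, minus strand): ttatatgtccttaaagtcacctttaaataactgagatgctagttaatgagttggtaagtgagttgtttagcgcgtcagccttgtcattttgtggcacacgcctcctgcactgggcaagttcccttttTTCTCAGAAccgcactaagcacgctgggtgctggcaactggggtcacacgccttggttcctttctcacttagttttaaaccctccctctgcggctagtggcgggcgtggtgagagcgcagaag
The Tcf/Lef core occurred once before Il18rap, with its first base 240 bases before the start, and once before Stat4, 49 bases before it. It was not found in this window before Ifng, Il12rb2 or Il18r1. Of 32851 windows of the same length in the table, 27.6% held it. The Stat core occurred once before Ifng (249 bases) and once before Il12rb2 (123 bases), against 7.02% of windows, and the T-box half-site AGGTGT, present in 11.8% of windows, in none of the 5. No match overlapped another. These are matches of letters, and no binding was measured.

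Tcf7 stood at 11.2 and 25.0 CPM in KO libraries 1 and 2, against 89.5 and 79.1 CPM in WT libraries 1 and 2. CPM are counts scaled to the library total and between libraries with TMM factors. By the library total alone, 28.3 to 40.2 counts make 1 CPM. The libraries held 28254693 and 37384979 counts (KO) and 31860505 and 40175537 counts (WT). Libraries with the same number in the labels were closer to each other than libraries of the same genotype. The chi-square per degree of freedom over genes was 68.3 for KO 1 with WT 1 and 36.9 for KO 2 with WT 2, against 285 for KO 1 with KO 2 and 147 for WT 1 with WT 2. The labels do not say what a number stands for. The KO to WT ratio within each number is therefore given beside the fold changes. All 12 NK cell markers were present in every library, the lowest being Fcgr3 at 69.9 to 116 CPM. Summed myeloid and dendritic cell markers stood at 558 and 76.2 CPM in KO libraries and at 136 and 15.5 CPM in WT libraries, with overlap. Of these markers, 11 of 11 tested had a fitted log2 fold change above 0. S100a8, S100a9, Mpo and Elane were higher in both KO libraries than in both WT libraries, as were 9.64% of all tested genes. The other tested myeloid and dendritic cell markers, Lyz2 among them, overlapped between the groups. Summed erythroid markers stood at 207 and 126 CPM in KO and at 38.0 and 28.2 CPM in WT, without overlap.

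Across the 6 genes no difference between KO and WT cells passed the test. edgeR's quasi-likelihood test, adjusted over all genes with Benjamini-Hochberg at 0.05, called 0 of the 6 and 0 of 12723 genes (percent called 0). At an unadjusted p under 0.05 it also named 0 of the 6, against 361 genes or 2.84% of all tested, and DESeq2 called 0 of the 6, against 0.558% of all tested. The fitted fold changes of KO over WT ran from 0.875 for Il18rap to 1.23 for Ifng. Their median on the log2 scale was -0.09, where that of all tested genes was -0.01. Of the 6, 4 had a fitted fold change below 1, as did 51.8% of all tested genes, and 2 had groups that did not overlap, as did 21.2%. Missing the threshold is no evidence of equal expression. Tcf7 itself was not called by edgeR (unadjusted p = 0.00607) but was called by DESeq2 (adjusted p = 0.00216). The 95% interval of each fold change is therefore given. It comes from the fit without a term for the library number, so it includes the gap between libraries 1 and 2. With that number as a block the SEs were smaller, as given in the last section. In bulk RNA, fewer cells that carry a transcript and less transcript per cell cannot be told apart.

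**Figure D1:**
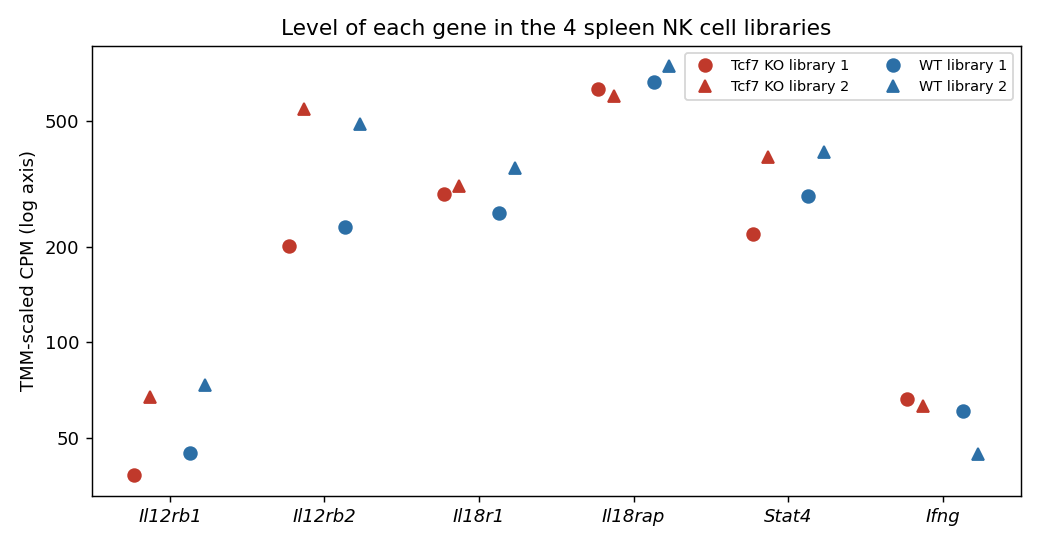
Level of each of the 6 genes in every library, as TMM-scaled CPM on a log axis; circles are library 1 and triangles library 2, KO in red to the left of WT in blue. Il12rb1, Il12rb2, Stat4 and Il18r1 were higher in library 2 than in library 1 of both genotypes, and only for Il18rap and Ifng did both KO libraries lie on one side of both WT libraries.

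Il12rb1, the chain that IL-12 and IL-23 receptors share, was counted 1119 and 2418 times in the KO libraries and 1461 and 2890 times in the WT libraries. This is 38.2 and 67.1 CPM in KO against 44.9 and 73.6 CPM in WT. Library 1 was the lower one in both genotypes and the groups overlapped. The means were 52.6 ± 20.4 CPM in KO and 59.3 ± 20.2 CPM in WT (SD, n = 2 each), a log2 fold change of -0.17 (SE 0.41; edgeR adjusted p = 1). The 95% interval of the fold change was 0.418 to 1.89. Within numbers, the log2 ratio (KO over WT) was -0.24 for libraries 1 and -0.13 for libraries 2.

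Il12rb2, the chain that carries the Stat4 docking site and whose level sets IL-12 responsiveness in T cells, stood at 201 and 543 CPM in KO and at 231 and 488 CPM in WT. Both library 2 values lay far above both library 1 values, and the KO values enclosed the WT values. The means were 372 ± 242 CPM in KO and 359 ± 182 CPM in WT (SD, n = 2 each), with a log2 fold change of 0.05 (SE 0.62; edgeR adjusted p = 1). The interval of 0.330 to 3.25-fold was the widest of the 6. The log2 ratio within numbers was -0.20 for libraries 1 and 0.16 for libraries 2, of opposite sign. Leaving out KO library 2 gave a log2 fold change of -0.81 (edgeR adjusted p = 0.796) and leaving out WT library 1 gave -0.39. Leaving out KO library 1 gave 0.60 and leaving out WT library 2 gave 0.70, and the edgeR adjusted p was 1 in each of these 3 fits. The end of Il12rb2 lies on the opposite strand to Serbp1, an mRNA-binding protein gene at 546 to 616 CPM, and in the GENCODE annotation of mm10 40% of the exon bases of Il12rb2 are shared with it. The strand setting of the counting is not given in the sources used here, so reads from the shared part may have been left out or assigned to the other gene.

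Il18r1, the ligand-binding chain of the IL-18 receptor, was at 293 and 311 CPM in KO and at 256 and 355 CPM in WT. The KO values lay inside the range of the WT values. Their means were 302 ± 12.2 CPM in KO and 306 ± 69.7 CPM in WT (SD, n = 2 each). Fitted over all 4 libraries, the log2 fold change was -0.02 (SE 0.24; edgeR adjusted p = 1), with an interval of 0.632 to 1.55-fold. The log2 ratio within numbers was 0.19 for libraries 1 and -0.19 for libraries 2, of opposite sign. The sign of this value turned with the scaling, at 0.00 with RLE size factors.

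Il18rap, the accessory chain without which the IL-18 receptor does not signal, was counted 18441 and 21580 times in KO and 21529 and 29108 times in WT. Scaled, it stood at 629 and 599 CPM in KO and at 662 and 741 CPM in WT. The KO libraries were both under the WT libraries, which held for 11.6% of all tested genes. The means were 614 ± 21.3 CPM in KO and 702 ± 55.7 CPM in WT (SD, n = 2 each). edgeR gave a log2 fold change of -0.19 (SE 0.19; unadjusted p = 0.370, adjusted p = 1) and its interval 0.612 to 1.25-fold, the narrowest of the 6. The log2 ratio was -0.08 for libraries 1 and -0.31 for libraries 2. The log2 fold change stayed below 0 under all 12 alternative settings, which use the same libraries, whose groups did not overlap.

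Stat4, the factor that IL-12 activates, stood at 220 and 383 CPM in KO and at 290 and 397 CPM in WT. As with the IL-12 receptor chains, library 2 was above library 1 in both genotypes, and the groups overlapped. The means were 302 ± 115 CPM in KO and 343 ± 76.2 CPM in WT (SD, n = 2 each), with a log2 fold change of -0.19 (SE 0.36; edgeR adjusted p = 1) and an interval of 0.454 to 1.70-fold. The log2 ratio within numbers was -0.40 for libraries 1 and -0.05 for libraries 2. Of the Stat4 exon bases in the GENCODE annotation, 26.7% are shared with Gm28177, a transcript annotated on the same strand. The counts are per Entrez gene, and an effect of this overlap on them was not tested.

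Ifng, which encodes interferon gamma, was counted 1949 and 2275 times in KO and 1978 and 1749 times in WT. This is 66.5 and 63.1 CPM in KO against 60.9 and 44.5 CPM in WT. Both KO libraries lay above both WT libraries, which held for 9.64% of all tested genes, and the nearest values, KO 2 and WT 1, differed by 0.05 on the log2 scale. The means were 64.8 ± 2.37 CPM in KO and 52.7 ± 11.5 CPM in WT (SD, n = 2 each). edgeR gave a log2 fold change of 0.30 (SE 0.25; unadjusted p = 0.285, adjusted p = 1) and the interval 0.781 to 1.94-fold. The log2 ratio was 0.13 for libraries 1 and 0.50 for libraries 2. Leaving out WT library 2, the lowest of the 4, brought it to 0.11. T cells, which also transcribe Ifng, were looked for by their markers. Cd3e, an invariant chain of the T cell receptor complex, stood at 0.239 and 0.610 CPM in KO and at 0.400 and 0.458 CPM in WT. Trac, a T cell receptor constant segment, stood at 94.0 and 36.1 CPM in KO and at 5.88 and 8.30 CPM in WT, without overlap. The other tested T cell markers overlapped between the groups. Of 10 tested, 4 had a log2 fold change above 0, and the median was -0.08. The summed level of 11 T cell markers was 309 and 163 CPM in KO and 230 and 176 CPM in WT, with overlap. Most of this sum came from Trbc1 and Trbc2 in each library, with log2 fold changes of -0.16 (SE 0.33) and -0.24 (SE 0.36). Mpo, a granule enzyme of myeloid cells, stood at 11.3 and 2.97 CPM in KO and at 0.246 and 0.0255 CPM in WT. Trac, the erythroid markers and the myeloid genes S100a8, S100a9, Mpo and Elane lay higher in the same KO libraries as Ifng. The other tested T cell and myeloid markers overlapped. The part of such transcripts in the values of Ifng and Il18rap was not tested. Of the Ifng exon bases in the GENCODE annotation, 25.9% are shared with Gm49751, annotated on the same strand. An effect of this overlap on the counts, which are per Entrez gene, was not tested.

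**Figure D2:**
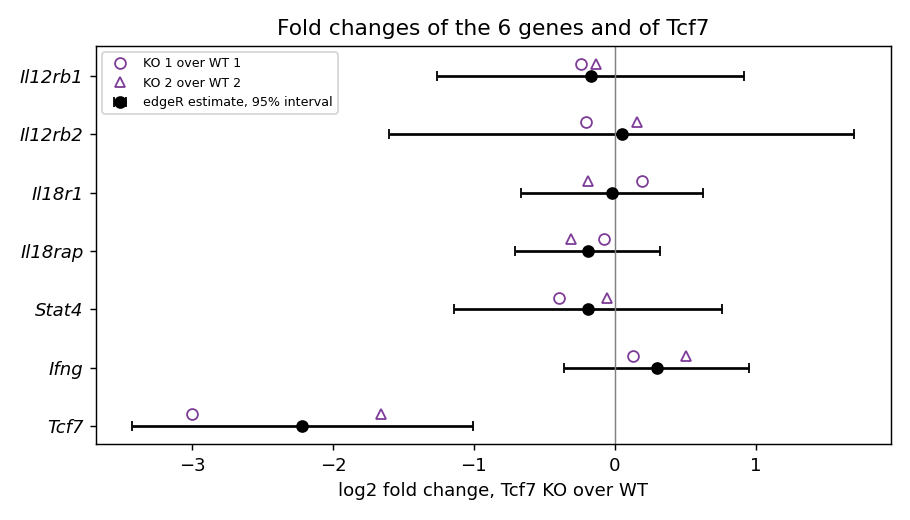
Log2 fold change of KO over WT from edgeR with its 95% interval for the 6 genes and for Tcf7 (black), and the ratio within libraries of the same number (open symbols). All 6 intervals include 0, while that of Tcf7 runs from -3.42 to -1.01. The intervals are not adjusted for the number of genes, and edgeR did not call Tcf7 after adjustment.

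To compare levels between genes, counts were also divided by the gene length the authors gave, as RPKM (CPM per kilobase of gene length, TMM-scaled). Il18rap was the most abundant of the 6 in every library, at 253 and 241 RPKM in KO and 266 and 298 RPKM in WT, within the top 2.43% of tested genes. Il12rb1 was the least abundant, at 13.3 and 23.3 RPKM in KO and 15.6 and 25.6 RPKM in WT. Between them lay Il12rb2 at 68.1 to 184 RPKM, Stat4 at 73.9 to 133 RPKM, Il18r1 at 53.6 to 74.2 RPKM and Ifng at 36.9 to 55.1 RPKM over the 4 libraries. Stat4 was above Il12rb2 in both libraries 1 and below it in both libraries 2, so these neighbours in the order did not differ beyond their spread. Il18r1 was below Il12rb2 and Stat4 and above Ifng in each library, although its range over the 4 libraries met that of each of these 3 genes. The order was otherwise the same in KO and WT libraries.

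**Figure D3:**
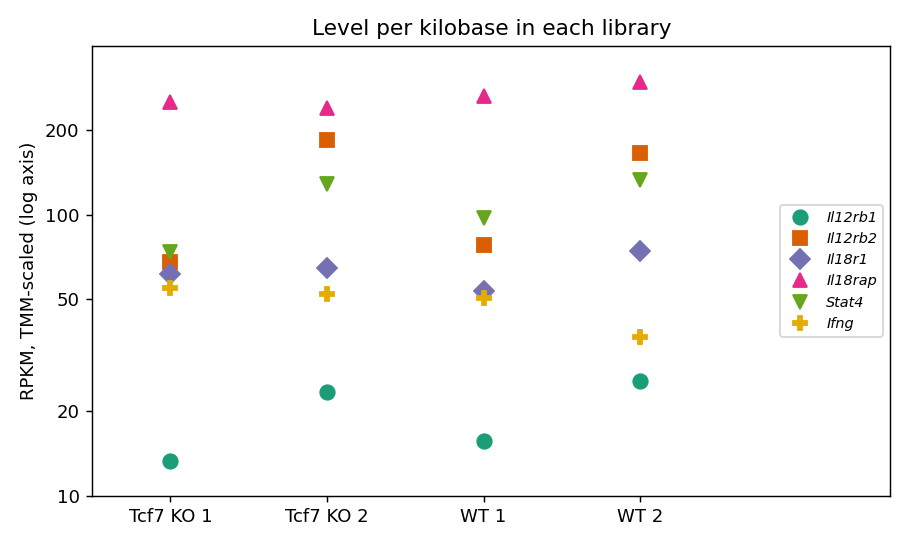
Level per kilobase of the 6 genes in each library, in TMM-scaled RPKM on a log axis. Il18rap was at the top and Il12rb1 at the bottom of every library, and Il12rb2 and Stat4 changed places between libraries 1 and 2 of both genotypes.

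The ratio of the partner chains within a library does not depend on the scaling between libraries. Per kilobase, Il12rb2 was 5.13 and 7.90 times Il12rb1 in KO libraries and 5.01 and 6.46 times in WT libraries. On the log2 scale the difference of KO minus WT was 0.16, with SDs of 0.44 in KO and 0.26 in WT (n = 2 each). Il18rap was 4.12 and 3.71 times Il18r1 in KO and 4.97 and 4.01 times in WT, a log2 difference of -0.19, with SDs of 0.11 in KO and 0.22 in WT. The groups overlapped for both ratios. Within numbers, the log2 difference of KO minus WT was 0.03 for libraries 1 and 0.29 for libraries 2 for Il12rb2 over Il12rb1, and -0.27 and -0.12 for Il18rap over Il18r1. An exact two-sided permutation test of 2 libraries against 2 cannot give a p under 0.333, so the ratios are given without a test. In every library of both genotypes Il12rb2 and Il18rap exceeded their partner chains.

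The gap between the libraries of 1 genotype was larger than the gap between genotypes for the IL-12 arm. Il12rb2 was 2.71 times higher in KO 2 than in KO 1 and 2.11 times higher in WT 2 than in WT 1. Among 6828 tested genes with a mean of at least 20 CPM, 7.07% had a larger gap in KO and 6.09% in WT. For Il12rb1 these ratios were 1.76 in KO and 1.64 in WT, and for Stat4 1.74 in KO and 1.37 in WT. The gaps of the IL-18 receptor chains and Ifng were smaller in KO, while in WT those of Il18r1 and Ifng were near that of Stat4. In KO the ratio of library 2 to library 1 was 1.06 for Il18r1, 0.952 for Il18rap and 0.950 for Ifng, and in WT it was 1.38, 1.12 and 0.732. A larger gap in KO than that of Il18r1 was found for 88.9% of the 6828 genes, against 90.7% for Il18rap and 90.2% for Ifng.

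**Figure D4:**
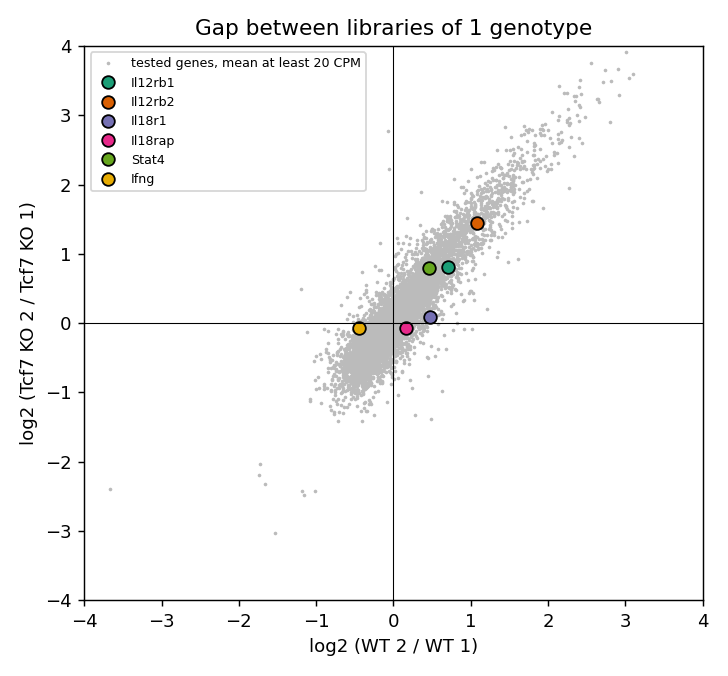
Log2 ratio of library 2 to library 1 in KO (vertical) against WT (horizontal) for 6822 tested genes with a mean of at least 20 CPM (grey) and the 6 genes (coloured); 5 genes lie outside the axes. Il12rb2, Il12rb1 and Stat4 sit at the upper right, Il18r1 lies just above 0 in KO, Il18rap lies close to 0 and Ifng below 0 in both genotypes.

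Genes close to each member in pattern were found as the smallest root mean square distance of centred log2 CPM over the 4 libraries, among 6784 other genes with a mean of at least 20 CPM. For Il12rb1 they were Cnot1, a scaffold of the mRNA deadenylase complex, and Ulk2, an autophagy kinase, at distances of 0.0154 and 0.0157. For Il12rb2 Rnf40, a ubiquitin ligase, lay at 0.0298. For Stat4 they were Rbpms, an RNA-binding protein, and Gps2, a corepressor subunit, at 0.0125 and 0.0176. For Il18r1 they were Ppp5c, a phosphatase, and Zfyve1, at 0.0241 and 0.0249, and for Il18rap Pgap3 and Sephs2, at 0.00614 and 0.0178. Ifng had the least close neighbours, the amino acid aminotransferase Bcat2 (0.0369) and the biliverdin reductase Blvra (0.0488). Likeness over 4 libraries is a weak description: 30.6% of the candidate genes had a Pearson r over 0.9 with Il12rb2 and 31.8% with Stat4, against 1.22% with Il18rap and 2.7% with Ifng.

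Of the tested genes next to the members that are given here, none passed the test, which called 0 of 12723 genes. Il1rl1, the IL-33 receptor gene 136 bases before Il18r1, was near the limit of counting at 0.955 and 0.416 CPM in KO and 0.431 and 0.331 CPM in WT. Mast3, a kinase gene next to Il12rb1, stood at 64.8 and 246 CPM in KO and 99.9 and 240 CPM in WT, with both libraries 2 above both libraries 1, as for Il12rb1. Arrdc2, on the other side of Il12rb1, stood at 5.25 and 5.41 CPM in KO and 8.31 and 10.2 CPM in WT (log2 fold change -0.80, SE 0.26). Its KO libraries were both under the WT libraries, as for 11.6% of all tested genes. Further tested neighbours had log2 fold changes of 0.05 (SE 0.22) for Gadd45a, -0.11 (SE 0.62) for Gm9049 and -0.21 (SE 0.31) for Dyrk2, while Slc9a4 was not tested. Il23r, next to Il12rb2, was counted in 1 library at 0.0308 CPM and was not tested.

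The wider pathway was described with 7 lists of 101 genes, of which 90 were tested. None was called by edgeR over all genes, with no term for the library number, or by DESeq2, and 3 had an unadjusted edgeR p under 0.05, against 2.84% of all tested genes. With the library number as a block, edgeR called Socs2, Cish and Cd69, as given in the last section. The cytokines themselves were barely present in these cells. Il12b, the shared chain of IL-12 and IL-23, and Il23a were counted 0 times in all 4 libraries. This allows up to 0.106 CPM in the shallowest library, before its TMM factor. Il12a lay at 0.136 and 0.194 CPM in KO and 0.215 and 0 CPM in WT. Il18 stood at 2.35 and 0.416 CPM in KO and at 1.88 and 0.866 CPM in WT, and Il1b at 1.40 and 0.472 CPM in KO and 0.831 and 0.229 CPM in WT.

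Of 8 tested related receptors, 1 had an unadjusted p under 0.05. Il6st, the signalling chain gp130 of the IL-6 and IL-27 receptors, stood at 3.31 and 3.61 CPM in KO and at 6.28 and 7.08 CPM in WT. The KO libraries were both under the WT libraries (log2 fold change -0.95, SE 0.29; edgeR unadjusted p = 0.0247, adjusted p = 1). Its partner Il27ra stood at 145 and 146 CPM in KO and 129 and 118 CPM in WT (0.24, SE 0.19). Sigirr, an inhibitory member of the IL-1 receptor family, was at 93.2 and 83.5 CPM in KO and 97.0 and 80.0 CPM in WT. The median of the list was -0.03.

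Of 13 genes of IL-12 signalling, 5 were above 0 and 8 below, with a median of -0.01. Socs2, a feedback inhibitor of cytokine receptors, stood at 11.6 and 15.6 CPM in KO and at 3.11 and 5.47 CPM in WT, without overlap. Its log2 fold change was 1.66 (SE 0.39; edgeR unadjusted p = 0.0102, adjusted p = 1; DESeq2 adjusted p = 0.0600), the largest of the 90 pathway genes. The kinase gene Jak1 stood at 1131 and 2013 CPM in KO and 1530 and 2326 CPM in WT, and Tyk2, which binds Il12rb1, at 240 and 407 CPM in KO and 281 and 378 CPM in WT. Both had library 2 above library 1 in each genotype. Jak2, which binds Il12rb2, differed by -0.07 (SE 0.26).

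Of 23 genes of IL-18 signalling, 9 were above 0 and 14 below, with a median of -0.06 and none at an unadjusted p under 0.05. Myd88 stood at 101 and 97.8 CPM in KO and at 104 and 88.4 CPM in WT, and the kinase gene Irak4 at 41.2 and 58.6 CPM in KO and 38.0 and 52.0 CPM in WT. Nfkb1, which encodes a subunit of NF-kappaB, had a log2 fold change of 0.27 (SE 0.38), and Tab2, an adaptor of the kinase Tak1, one of -0.19 (SE 0.23).

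Of 12 regulators of Ifng, 2 were above 0 and 10 below, with a median of -0.15. The sign of this median rested on single libraries: leaving out KO library 1 or WT library 2 gave 0.30 and 0.24, and leaving out KO library 2 or WT library 1 gave -0.77 and -0.44. Tbx21, which encodes T-bet, an activator of Ifng, differed by 0.05 (SE 0.29), and Ets1, which encodes another activator, by -0.30 (SE 0.23). Runx3, which acts with T-bet on Ifng in T cells, stood at 85.0 and 375 CPM in KO and at 133 and 361 CPM in WT, a wider gap between libraries than between genotypes. The transcripts of Zfp36 and Zfp36l2, proteins that destabilise cytokine mRNAs, differed by -0.19 (SE 0.38) and -0.15 (SE 0.46).

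Of 11 tested genes known to be induced by IL-12 with IL-18, 6 were above 0 and 5 below, with a median of 0.00. In 4 of the 11 (Gadd45b, Cd69, Csf2 and Gzmb) both KO libraries lay above both WT libraries, as in 9.64% of all tested genes. In 1 (Il2ra) both lay below, as in 11.6%. Cd69, an early activation marker, stood at 42.1 and 38.4 CPM in KO and at 25.3 and 16.1 CPM in WT, without overlap (log2 fold change 0.96, SE 0.30; edgeR unadjusted p = 0.0292, adjusted p = 1). Gzmb, a granzyme gene, differed by 0.47 (SE 0.21) and the chemokine gene Ccl4 by 0.23 (SE 0.28). Tnf and Il10 were at or under 0.154 CPM in every library.

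Of 20 tested genes of the interferon gamma response, 12 were above 0 and 8 below, with a median of 0.05 and none at an unadjusted p under 0.05. The receptor gene Ifngr1 stood at 1328 and 1379 CPM in KO and 1203 and 1255 CPM in WT (log2 fold change 0.14, SE 0.19), and Irf8 at 732 and 1172 CPM in KO and 794 and 1019 CPM in WT (0.07, SE 0.32). Irf1, a transcription factor gene induced by interferon gamma, differed by -0.04 (SE 0.23).

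**Figure D5:**
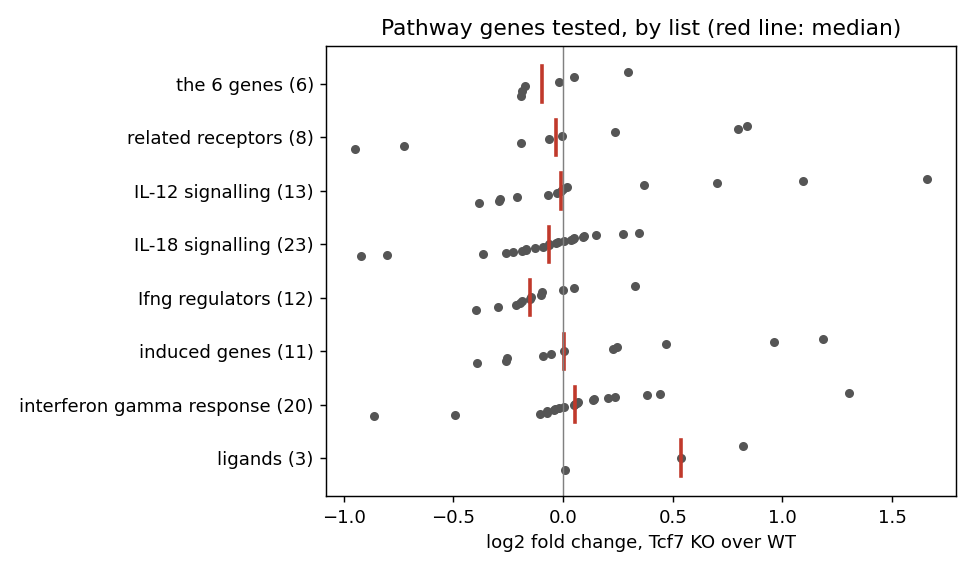
Log2 fold change of KO over WT for the 6 genes and the tested members of each pathway list (dots; number of genes in brackets), with the median as a red line. The medians lie between -0.15 and 0.05 except for the 3 cytokine genes at 0.54, which were at or under 2.35 CPM in every library and whose median ran from -0.27 to 2.00 with 1 library left out.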

How the data were processed

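RNA of sorted spleen NK cells from 2 Tcf7 KO and 2 WT mice was prepared from total RNA with a TruSeq kit and sequenced as paired ends, per the labels' protocols. The deposited values are whole-number counts per Entrez gene with a gene length, per the file headers. Per the submitters' processing notes, counting was done by the authors with featureCounts, with mm10 as the genome; the aligner, versions and strand setting are not given in the sources used here. Single-sample files and the series table held the same counts.

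Of 26611 genes, 25275 matched a RefSeq symbol; the rest held 1.23% of counts and stayed in the tests. Genes were kept with filterByExpr (minimum count 10). KO was tested against WT with edgeR 4.0.16 under R 4.3.3, by a robust quasi-likelihood fit on TMM-scaled libraries with no term other than genotype, two-sided, Benjamini-Hochberg adjusted over 12723 genes, threshold 0.05. The SE is the log2 fold change over the square root of F. CPM and RPKM were computed here. Before the TMM factors, 1 CPM stands for 28.3 to 40.2 counts. Floors (3 counts) are on that same scale and cover counting error only. With n = 2 per group the p-values rest on the spread shared across genes. Alternatives were DESeq2 1.42.0, limma 3.58.1 voom, other scalings, filters and dispersion, the replicate number as a block, and each library left out.

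The 6 genes and the pathway and marker lists were chosen with earlier results of these data known. Text names the 6 genes, list members with an unadjusted p under 0.05, the 2 per list with the highest mean CPM, the 2 nearest patterns and the neighbouring genes; a few genes this rule names are not reported here. Other list members were chosen after their values were seen. Hbb-bt, an erythroid marker, was not matched.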

Additional observations from a re-analysis of the deposited data

How the results depend on the processing

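None of the 6 genes was called under any of the 12 alternatives (smallest adjusted p 0.466, for Ifng with the replicate block). Il18rap stayed below 0 (-0.28 to -0.09) and Ifng above 0 (0.11 to 0.54) in all 12. The groups of these 2 genes did not overlap, so leaving out 1 library was no test of the sign. The other settings refit the same libraries. The rest of the 6 genes changed sign. Il12rb2 was -0.0235 with limma voom and -0.0229 with the replicate block. Il18r1 was 0.00227 with RLE size factors, 0.00226 with DESeq2 and 7.48e-04 with voom. It was 6.42e-04 with the replicate block and 0.0116 when 5 CPM in 2 libraries were required. With the block the SE was 0.13 for Il12rb1, 0.14 for Il12rb2 and 0.14 for Stat4, against 0.41, 0.62 and 0.36 in the main fit. For Il18r1, Il18rap and Ifng it was 0.14 each, against 0.24, 0.19 and 0.25. With each library left out, the log2 fold change ran from -0.60 to 0.24 for Il12rb1, -0.81 to 0.70 for Il12rb2, -0.24 to 0.25 for Il18r1 and -0.61 to 0.16 for Stat4. Il12rb1, Il18r1 and Stat4 turned to above 0 without KO library 1 or WT library 2, and Il12rb2 to below 0 without KO library 2 or WT library 1. The cause was not tested. The median log2 fold changes of the pathway lists also turned sign with single libraries left out. They ran from -0.27 (without WT library 2) to 2.00 (without WT library 1) for the cytokines, -0.14 to 0.01 for the related receptors, -0.30 to 0.18 for IL-12 signalling, -0.18 to 0.10 for IL-18 signalling, -0.77 to 0.30 for the regulators of Ifng, -0.14 to 0.36 for the induced genes and -0.03 to 0.13 for the interferon gamma response. The lowest value came without KO library 2 for the last 5 lists.

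Over all genes, the number called was 35 with no filter on low counts, 71 with DESeq2, 221 with the replicate block, and 0 to 53 with each library left out (33 without KO library 1, 53 without KO library 2). Libraries share a number in the labels but no stated origin. Deviations of same-numbered libraries correlated at 0.728 over 12723 genes, and 86.6% of 6828 genes had their library 2 to library 1 gap in the same direction in KO and WT. With the block, edgeR called 3 of 90 tested pathway genes, all higher in KO, against 221 of 12723 genes in all. They were Socs2 (log2 fold change 1.69, edgeR adjusted p = 0.004), Cish (1.03, adjusted p = 0.01) and Cd69 (0.99, adjusted p = 0.0169).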
